A study of Mus musculus with 6 samples.

Results

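Untreated mouse embryonic stem cells without Wt1 were compared with untreated wild-type (WT) cells by counting mature microRNAs (miRNAs). The miRNAs described are the 282 entries, of the 1899 listed in the deposited tables, whose unique-match count averaged at least 50 over these libraries. They held 99.6% of the counted reads in WT and 99.7% in the Wt1 knockout (KO). Of the other entries, 986 had no read in either library and 631 had some reads but lay below the minimum. Each side is 1 library, so no difference has a replicate check and no p-value is given.

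miRNAs are short RNAs that are cut in steps from a hairpin precursor. They bind messenger RNAs mainly through the seed, bases 2 to 8 counted from 1 at the 5′ end, and lower the output of those messages. Each hairpin has a 5p and a 3p arm, and many hairpins lie in clusters that are transcribed together. Mouse embryonic stem cells are known for the miR-290 cluster, and miRNAs that share a seed but come from different loci are expected to bind overlapping sets of messages.

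All cells were 129/Ola embryonic stem cells grown on gelatin with fetal calf serum and leukemia inhibitory factor (LIF). The WT group had no change at Wt1 and no treatment, and the Wt1 KO group carried the knockout and had no treatment. The Wt1 protein is a zinc finger regulator of transcription, without which kidneys and gonads do not form. The labels give neither the knockout allele nor the number of clones, and they name no separate cultures. The series holds 4 further libraries, which serve here only as side values: Wt1 KO after 12 h or 24 h of doxycycline (dox, 1 µg/ml), and WT and Wt1 KO with retinoic acid (RA). The labels call the dox libraries induced, read here as induction of Wt1 in the KO cells, so they are not further libraries without Wt1. The dose of RA is 1 µm in the labels, read here as 1 µM. Small RNA libraries do not read Wt1 mRNA, so the knockout itself was not checked here. The WT library held 1063945 counted reads and the Wt1 KO library 1768862, and the 6 libraries ranged from 83626 to 6106104. Levels are normalised counts (CPM, counts for every 1e+06 of the scaled library), counts divided by a library size adjusted with factors from the trimmed mean of M values method (TMM). Ratios are log2 of Wt1 KO over WT with a 95% interval that covers counting error only, since reads were amplified and carry no molecular identifiers. A miRNA was called higher or lower when its ratio was at least 1 or at most -1, a change of 2-fold, and the interval excluded 0.

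The sequences below are shown for miRNAs that share a seed but come from different loci, picked because their ratios differed. They are the mature sequences as deposited, 5′ to 3′ with T for U, and the capitals mark the seed. The first are the miR-181 family, of which miR-181a and miR-181b were lower in the KO and miR-181c and miR-181d passed in neither direction.
miR-181a-5p: aACATTCAacgctgtcggtgagt
miR-181b-5p: aACATTCAttgctgtcggtgggt
miR-181c-5p: aACATTCAacctgtcggtgagt
miR-181d-5p: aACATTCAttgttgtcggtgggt
In the miR-200b family, miR-200b and miR-429 share 1 locus and miR-200c has another.
miR-200b-3p: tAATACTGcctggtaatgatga
miR-429-3p: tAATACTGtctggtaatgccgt
miR-200c-3p: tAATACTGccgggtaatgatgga
The miR-302 and miR-290 clusters share a seed in 6 measured miRNAs.
miR-302a-3p: tAAGTGCTtccatgttttggtga
miR-302b-3p: tAAGTGCTtccatgttttagtag
miR-302d-3p: tAAGTGCTtccatgtttgagtgt
miR-291a-3p: aAAGTGCTtccactttgtgtgc
miR-294-3p: aAAGTGCTtcccttttgtgtgt
miR-295-3p: aAAGTGCTactacttttgagtct
The miR-17 seed is made from 3 loci. The miRNAs of the X-linked locus, miR-106a and miR-20b, were higher, while miR-93 and miR-106b of another locus were not called.
miR-106a-5p: cAAAGTGCtaacagtgcaggtag
miR-20b-5p: cAAAGTGCtcatagtgcaggtag
miR-17-5p: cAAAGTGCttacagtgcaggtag
miR-20a-5p: tAAAGTGCttatagtgcaggtag
miR-106b-5p: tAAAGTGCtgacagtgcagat
miR-93-5p: cAAAGTGCtgttcgtgcaggtag
The pair miR-28a and miR-708 shares a seed and was called in opposite directions, and let-7e is shown beside let-7a and let-7c, which were not called.
miR-28a-5p: aAGGAGCTcacagtctattgag
miR-708-5p: aAGGAGCTtacaatctagctggg
let-7e-5p: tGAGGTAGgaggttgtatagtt
let-7a-5p: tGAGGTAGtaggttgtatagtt
let-7c-5p: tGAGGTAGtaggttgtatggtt
The last are the miRNAs with the lowest and highest ratios, a strand that changed against the rest of its cluster, and the most abundant miRNA.
miR-335-3p: tTTTTCATtattgctcctgacc
miR-21a-5p: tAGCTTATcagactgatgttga
miR-21a-3p: cAACAGCAgtcgatgggctgtc
miR-92a-1-5p: aGGTTGGGatttgtcgcaatgct
miR-92a-3p: tATTGCACttgtcccggcctg
miR-5126: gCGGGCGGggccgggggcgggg
miR-1195: tGAGTTCGaggccagcctgctca

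Of the 282 miRNAs, 35 were higher in Wt1 KO (12.4%) and 42 were lower (14.9%). The lower ones reached farther. There were 19 miRNAs more than 4-fold lower and 6 more than 4-fold higher, and the ratios ran from -5.38 to 3.84. The median of all 282 was 0.16, with quartiles of -0.43 and 0.62, and 163 ratios were above 0 and 119 below. In bulk RNA, fewer cells of a kind and less RNA per cell cannot be told apart. The number of higher miRNAs rested on the scaling. With CPM of the total count, ratios moved by a median of -0.36, 18 miRNAs were higher and 56 lower, and the share of calls that were higher was 24.3% where it was 45.5% with TMM. All 42 lower calls held under that scaling, but it moved the ratios down and so could not have removed a lower call. Of the 35 higher calls, the 17 with the smallest ratios, up to 1.34 for miR-871-3p, did not.

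**Figure D1:**
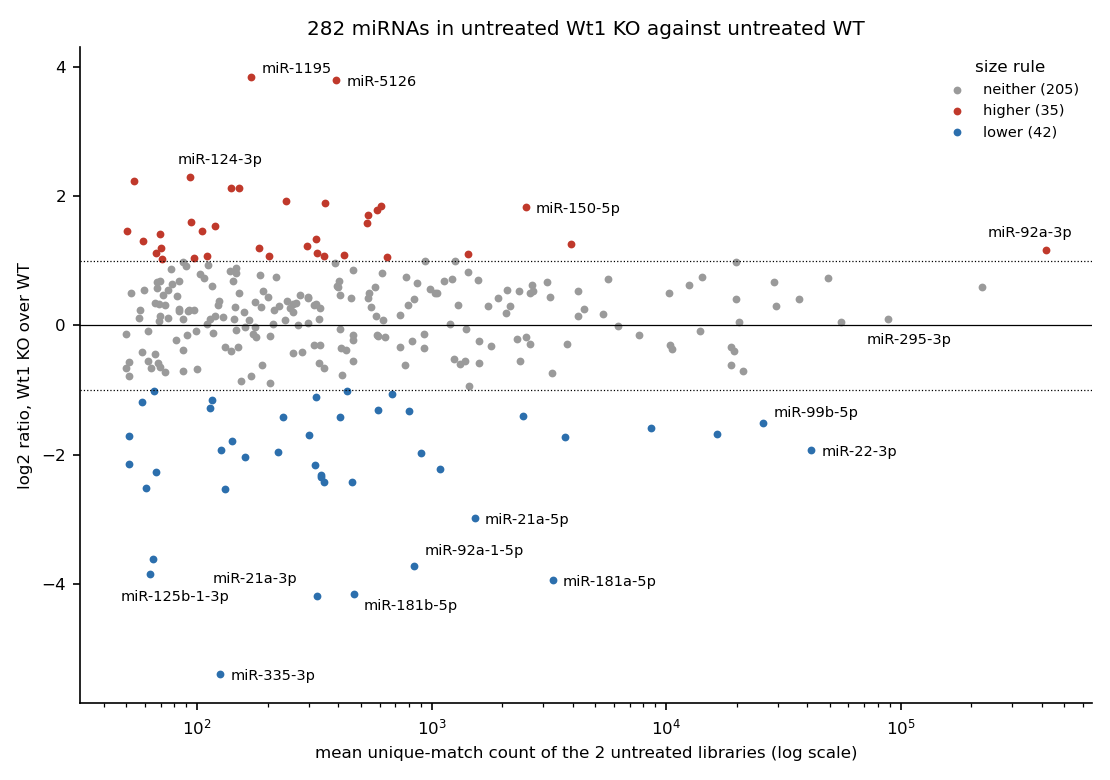
Each point is 1 of the 282 miRNAs, with its mean unique-match count on a log scale (x axis) and its log2 ratio of Wt1 KO over WT (y axis). Dotted lines mark ratios of 1 and -1; the 42 lower miRNAs reach -5.38 and the 35 higher ones 3.84, and both occur at low and high counts.

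The miRNA with the lowest ratio was miR-335-3p, which comes from an intron of the imprinted gene Mest (chr6:30741354-30741375, plus strand, in the RefSeq annotation of GRCm38.p6, the build of every position given here). WT had 243 reads (223 CPM) of it and Wt1 KO 7 reads (4.96 CPM), 41.7-fold fewer, with a ratio of -5.38 (interval -6.82 to -4.43). It was the least abundant of the 282 in the KO library. The level was also low in the dox libraries, at 14.1 CPM after 12 h and 8.23 CPM after 24 h. With RA it was 1393 CPM in WT and 74.0 CPM in Wt1 KO. The other arm, miR-335-5p, fell below the count minimum, where WT had 6 reads and Wt1 KO had 0 (upper bound of the interval -0.61).

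Both strands of miR-21a were lower, from a hairpin that the annotation places in an exon of at least 1 transcript of Vmp1 on chromosome 11. miR-21a is widely known from fibroblasts and tumours. The guide strand miR-21a-5p (chr11:86584120-86584141) went from 2621 reads (2406 CPM) to 430 reads (305 CPM), a ratio of -2.98 (-3.13 to -2.83). The other strand, miR-21a-3p, went from 608 to 43 reads, 18.1-fold lower, with a ratio of -4.18 (-4.68 to -3.75). With RA neither strand was called: the ratios of Wt1 KO over WT were 0.21 and 0.35.

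miR-22-3p was the lower miRNA with the most reads, and it lies in an exon of its host transcript Mir22hg (chr11:75463772-75463793). It made up 5.84% of the WT reads and 1.20% of the KO reads, and moved from rank 4 to rank 12. Its level was 57032 CPM in WT and 15082 CPM in Wt1 KO, a ratio of -1.92 (-1.94 to -1.90). Others lower in the KO were miR-31-5p with 1697 and 470 reads (-2.22) and miR-205-5p, a miRNA of stratified epithelia, with 1358 and 447 reads (-1.97). Further lower miRNAs were miR-224-5p with 243 and 76 reads (-2.04) and miR-133a-3p, a muscle miRNA, with 118 and 12 reads (-3.61).

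The highest ratios belonged to miRNAs with few reads in WT. For miR-1195 the reads were 17 in WT and 323 in the KO, a ratio of 3.84 (3.17 to 4.67), and is annotated at chr17:70860558-70860580 (minus strand), with no host gene on that strand. miR-5126 had 41 and 744 reads, a ratio of 3.79 (3.35 to 4.30), at chr1:84695890-84695911 (plus strand), also with no host gene on its strand. These entries were 14.3-fold and 13.9-fold higher. The brain miRNA miR-124-3p followed with 25 and 161 reads (2.29, 1.70 to 2.98), and miR-211-5p, which lies in an intron of Trpm1, had 15 and 93 reads (2.23, 1.46 to 3.15). Reads of miR-211-5p are uncertain because it is nearly identical to miR-204-5p, which had 3 and 10 reads.

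Among higher miRNAs with a firmer base, miR-150-5p, a lymphocyte miRNA, went from 898 reads (824 CPM) to 4144 reads (2937 CPM). Its ratio was 1.83 (1.73 to 1.94). miR-497a-5p, of the miR-15/16 family, had 218 and 847 reads (1.58), and miR-1198-5p, in an intron of Gripap1 on the X chromosome, had 204 and 863 reads (1.71). miR-378a-3p had 1924 and 5944 reads (1.25), a call that CPM of the total did not make (0.89).

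**Figure D2:**
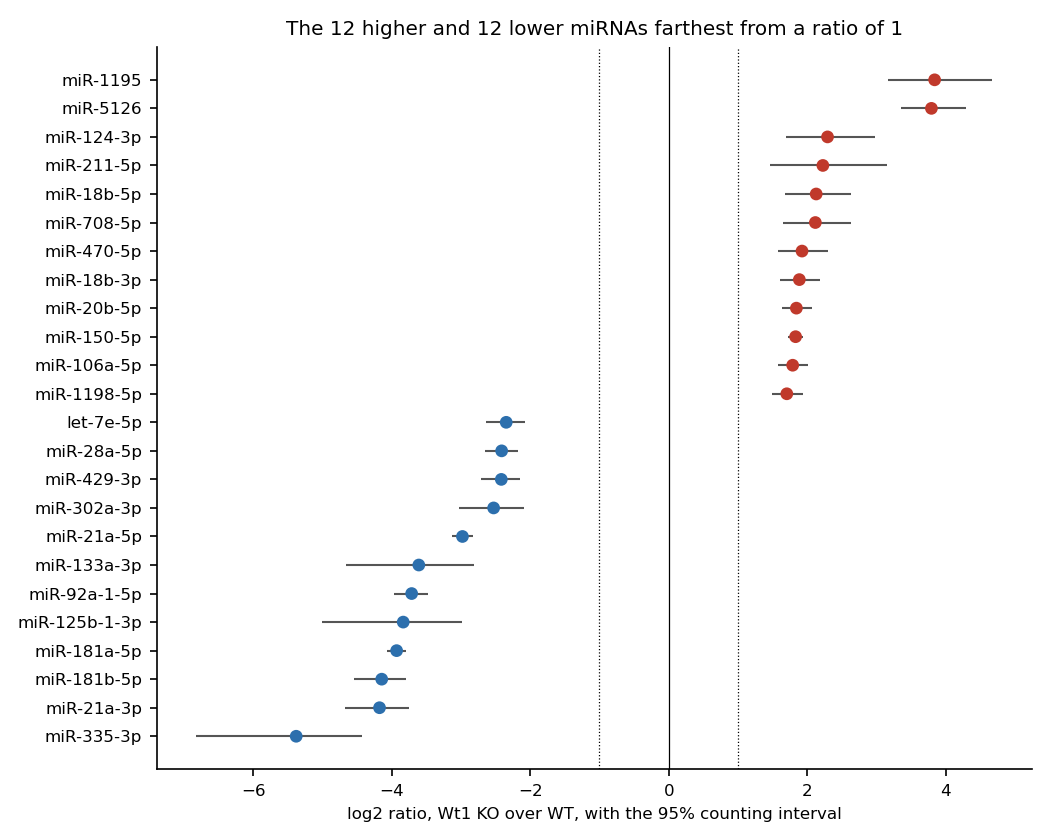
The 12 higher and 12 lower miRNAs whose intervals lie farthest from 0, as points with 95% counting intervals on the log2 scale of Wt1 KO over WT. miR-335-3p has the lowest ratio (-5.38) and a wide interval from 7 KO reads, while the interval of miR-181a-5p (-4.06 to -3.80) is narrow.

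The marker clusters of pluripotent cells did not move together. The miR-290 cluster on chromosome 7, the most typical of mouse embryonic stem cells, had 13 measured miRNAs. With TMM none was called, 12 ratios were above 0 and the median was 0.62. With CPM of the total miR-290a-3p was called lower (-1.24), and the ratios of miR-295-3p and miR-291a-5p turned negative (-0.26 and -0.07). The cluster held 16.04% of the reads in WT and 16.84% in Wt1 KO, which TMM scales to 156613 and 211165 CPM. Its most abundant miRNA, miR-295-3p, had 73740 and 102465 reads (0.10), and miR-294-3p had 11179 and 28607 reads (0.98, 0.95 to 1.01), just under the size of a call. The only ratio below 0 in the cluster with TMM was that of miR-290a-3p, with 240 and 168 reads (-0.89, -1.18 to -0.60).

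The miR-302 cluster, known from primed pluripotent cells, had 3 measured miRNAs and each was lower in the KO. miR-302d-3p had 496 reads (455 CPM) in WT and 144 reads (102 CPM) in Wt1 KO, a ratio of -2.15 (-2.44 to -1.89). miR-302a-3p had 216 and 48 reads (-2.53) and miR-302b-3p 106 and 28 reads (-2.27), and miR-302d-3p and miR-302b-3p lie together at chr3:127545275-127545687. The cluster was small next to the miR-290 cluster: it summed to 791 CPM in WT, 161 CPM in Wt1 KO, and 282 and 696 CPM after 12 h and 24 h of dox. Since these clusters share a seed, the 6 miRNAs with that seed had a summed share of 8.28% of reads in WT and 7.65% in Wt1 KO, a ratio of 0.25.

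The miR-17 seed family comes from 3 paralogous loci, and these differed. At the X-linked locus (chrX:52741697-52742563, minus strand), 5 of 7 measured miRNAs were higher and the median was 1.79. miR-20b-5p had 215 reads (197 CPM) in WT and 1001 reads (709 CPM) in Wt1 KO, a ratio of 1.84 (1.63 to 2.07), and miR-106a-5p had 214 and 960 reads (1.79, 1.58 to 2.01). From the same locus miR-18b-3p had 121 and 581 reads (1.89) and miR-18b-5p had 45 and 257 reads (2.13). Neither arm of miR-363 was called: miR-363-3p had 1635 and 3067 reads (0.53) and miR-363-5p had 54 and 113 reads (0.69).

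At the chromosome 14 locus, whose miRNAs lie in exons of Mir17hg (chr14:115043684-115044459), miR-18a-5p (50 and 188 reads, 1.53) and miR-20a-5p (171 and 481 reads, 1.12, or 0.76 with CPM of the total) were higher. miR-17-5p had 525 and 1352 reads (0.99, 0.85 to 1.14). The third locus, in Mcm7 (chr5:138165332-138165807), had no call among 6 miRNAs and a median of 0.23. There miR-93-5p had 5440 and 6989 reads, which are 4994 and 4953 CPM, a ratio of -0.01 (-0.06 to 0.04). Since miR-93-5p is the most abundant of the 6 that share this seed, their sum had a ratio of 0.34.

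miR-92a-3p and miR-92a-1-5p went opposite ways, though reads of miR-92a-3p cannot be assigned to the miR-92a-1 hairpin alone. miR-92a-3p, which can come from chromosome 14 or from the X-linked locus, was the most abundant miRNA in both libraries. It rose from 213696 reads (20.1% of all reads) to 621028 reads (35.1%), a ratio of 1.17 with TMM and 0.81 with CPM of the total, where it was not called. The other strand of the chromosome 14 hairpin, miR-92a-1-5p (chr14:115044437-115044459), had 1534 reads (1408 CPM) in WT and 151 reads (107 CPM) in Wt1 KO, a ratio of -3.71 (-3.97 to -3.48). Its counterpart from the X-linked hairpin, miR-92a-2-5p, is below the minimum and had 11 and 19 reads. In the libraries with Wt1 induced by dox, miR-92a-1-5p was at 4884 CPM after 12 h and 787 CPM after 24 h. With RA it was at 1027 CPM in Wt1 KO, beside 920 CPM in WT. Ratios at the chromosome 14 locus thus spanned 5.24 on the log2 scale, the widest span of the 19 clusters.

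**Figure D3:**
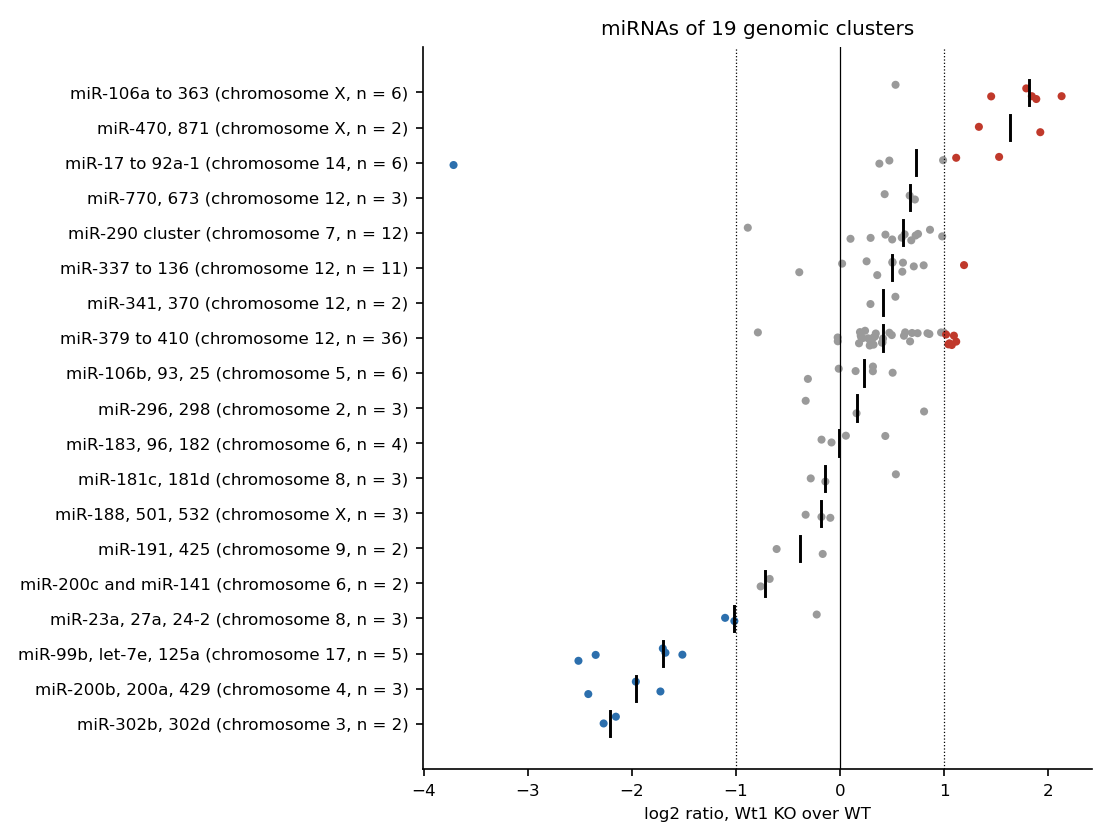
Each point is a miRNA of 1 of 19 genomic clusters (miRNAs with 1 RefSeq locus, neighbours on 1 strand at most 10 kb apart), at its log2 ratio of Wt1 KO over WT. Black bars are medians, red and blue mark higher and lower calls, and the miR-17 cluster holds 1 lower point, miR-92a-1-5p at -3.71, beside ratios of up to 1.53.

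The miR-99b, let-7e and miR-125a cluster, which lies in Spaca6 (chr17:17830194-17830876), was lower as a whole. All 5 measured miRNAs were called lower, with a median of -1.70 and a span of 1.00. miR-99b-5p, the sixth most abundant miRNA of WT, had 35563 reads (32644 CPM) in WT and 16127 reads (11429 CPM) in Wt1 KO, a ratio of -1.51 (-1.54 to -1.49). miR-125a-5p had 23566 and 9547 reads (-1.68), and let-7e-5p had 540 and 137 reads (-2.35, -2.63 to -2.08). The minor strands miR-99b-3p and miR-125a-3p had 428 and 170 reads (-1.70) and 99 and 22 reads (-2.51). With RA, miR-99b-5p was again called lower in Wt1 KO (-2.08), while let-7e-5p was not (-0.96).

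With TMM, let-7e was the only let-7 called; with CPM of the total let-7f-5p (-1.01) was called lower too. let-7 miRNAs are known to accumulate as stem cells differentiate. The other 4 measured members were not called: let-7c-5p had 678 and 1290 reads (0.55), let-7i-5p had 41 and 78 (0.55), let-7a-5p had 141 and 138 (-0.40) and let-7f-5p had 55 and 45 (-0.66). The sum over the 5 had a ratio of -0.16, since let-7c-5p holds most of it in the KO. let-7e-5p and let-7a-5p differ at 1 base, G9T counted from the 5′ end of let-7e, so some reads may be shared.

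The miR-125b miRNAs, related by seed to miR-125a, were lower from a separate locus. miR-125b-5p, which has loci on chromosomes 9 and 16, had 534 and 139 reads (-2.31, -2.59 to -2.04). The strand that marks the chromosome 9 hairpin, miR-125b-1-3p (chr9:41581980-41582001), had 116 WT reads and 10 KO reads (-3.83). The strand that marks the chromosome 16 hairpin, miR-125b-2-3p, had 2 and 5 reads. Over miR-125a, miR-125b and miR-351, which share a seed, the sum went from 23701 to 7691 CPM, a ratio of -1.62.

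The miR-200 family, known for keeping cells epithelial, had its larger differences at 1 of its loci. At the chromosome 4 locus (chr4:156053916-156055706, minus strand) all 3 miRNAs were lower, with a median of -1.96. miR-200b-3p had 5343 reads (4904 CPM) in WT and 2093 reads (1483 CPM) in Wt1 KO (-1.73, -1.80 to -1.65), miR-429-3p had 559 and 135 reads (-2.42) and miR-200a-3p had 332 and 110 reads (-1.96). At the chromosome 6 locus (chr6:124717917-124718346) neither was called: miR-200c-3p had 473 and 361 reads (-0.76) and miR-141-3p had 110 and 89 reads (-0.68). With CPM of the total both were called lower (-1.12 and -1.03), so the contrast of calls between these loci holds with TMM and not with that scaling. The intervals of miR-200b-3p and miR-200c-3p (-0.96 to -0.56) do not overlap. With RA, both miR-200b-3p (-3.24) and miR-200c-3p (-3.79, from 4 KO reads) were lower in Wt1 KO.

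Of the 6 groups plotted by seed, the miR-181 family had the widest spread of ratios. miR-181a-5p had 6055 reads (5558 CPM) in WT and 514 reads (364 CPM) in Wt1 KO, 15.2-fold lower (-3.93, -4.06 to -3.80). miR-181b-5p had 868 and 63 reads (-4.15, -4.55 to -3.79). Both come from hairpins on chromosomes 1 and 2, and the only strand that marks 1 of these with more than 3 reads was miR-181a-1-3p of chromosome 1, with 18 WT reads and 0 KO reads (upper bound of the interval -2.51). From chromosome 8, in an intron of Nanos3, miR-181c-5p had 2553 and 2722 reads (-0.28, -0.36 to -0.20) and miR-181d-5p had 1881 and 3536 reads (0.54, 0.46 to 0.62). miR-181b and miR-181d differ at only 1 of 23 bases, C12T, and still had ratios of -4.15 and 0.54. The sum over the family went from 10425 to 4844 CPM, a ratio of -1.11. After 24 h of dox miR-181a-5p was at 827 CPM, and with RA it was at 42196 CPM in WT and 18956 CPM in Wt1 KO.

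miR-28a-5p and miR-708-5p share a seed and were called in opposite directions. Both lie in introns of protein-coding genes, Lpp on chromosome 16 and Tenm4 on chromosome 7. miR-28a-5p had 738 and 179 reads (-2.41) and miR-708-5p had 42 and 238 reads (2.12), and their sum had a ratio of -1.28. In the plot of shared seeds these lines cross, so that miR-708-5p (169 CPM) was above miR-28a-5p (127 CPM) in the KO.

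**Figure D4:**
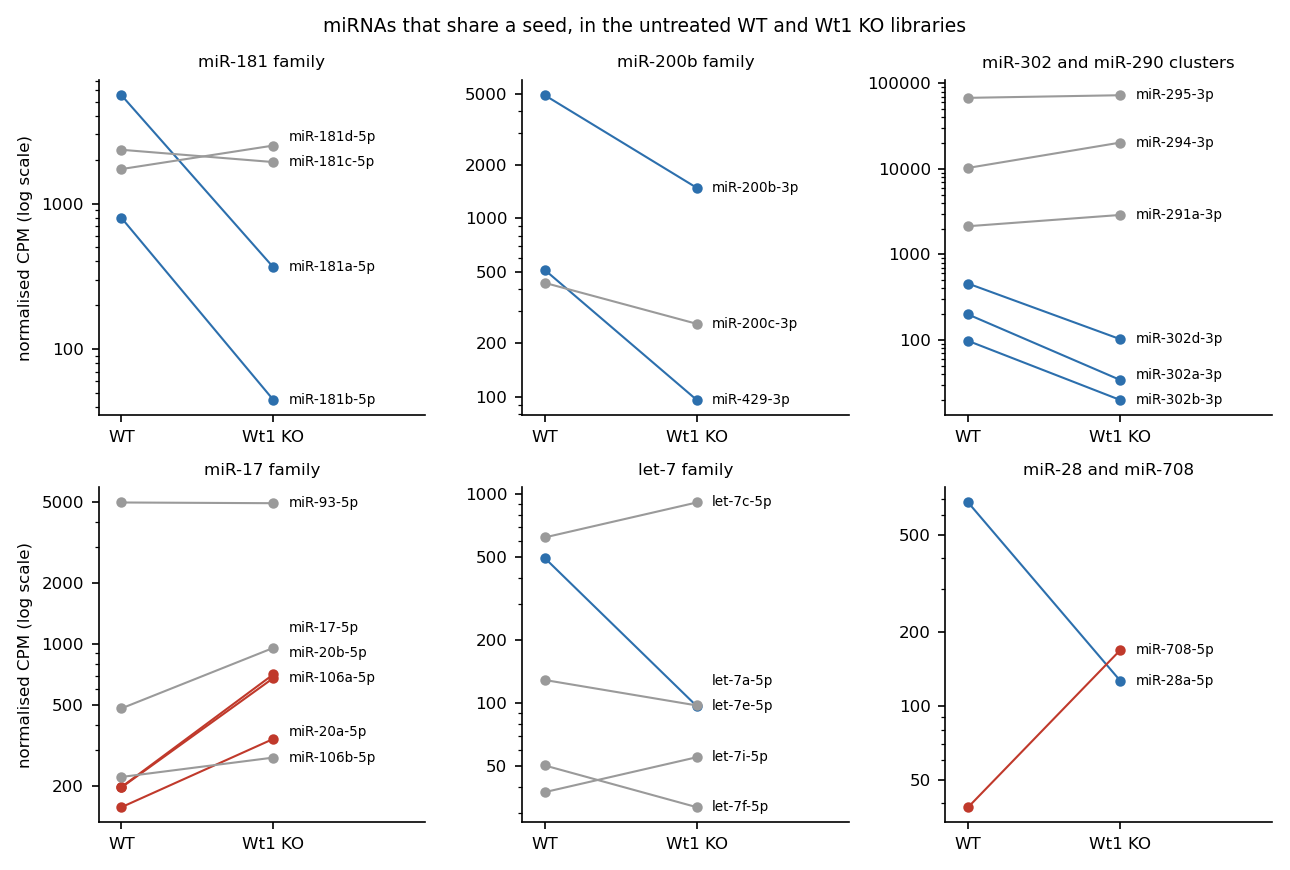
Levels in normalised CPM on log axes in the WT and Wt1 KO libraries, 1 panel for each group of miRNAs that share a seed and 1 line for each miRNA (with TMM, blue lower, red higher, grey not called). In the miR-181, miR-200b, miR-302, miR-17 and let-7 panels called and uncalled lines occur side by side, and in the miR-28 panel the lines cross.

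Reads were also summed over miRNAs with the same seed. Of 33 seeds with at least 2 measured miRNAs, 2 were higher and 8 lower with TMM. The higher ones were the miR-92a seed, from 22.6% to 37.4% of reads (1.09), and the miR-18 seed (1.85). These shares are of the total count, and they differ by less than 2-fold. The call of the miR-92a seed thus rests on TMM, as does that of miR-92a-3p (0.81 with CPM of the total). Among the lower ones were the miR-27 seed (-1.57), in which miR-27b-3p went from 12087 to 5192 reads, and the miR-200a seed (-1.52).

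The unmeasured arms gave a further reading of the same hairpins. For 17 called miRNAs the other arm lay below the minimum but had at least 10 reads in all. In 15 of these the ratio of the other arm had the same sign, 10 of 10 for lower miRNAs and 5 of 7 for higher ones. Over all 282 miRNAs, 163 ratios were above 0 and 119 below. Hairpins with both arms measured are not among the 17, such as miR-21a, lower in both arms, and miR-379 (5p 1.07, 3p -0.02). Examples are let-7e-3p with 22 and 3 reads, miR-302d-5p with 20 and 2 reads, miR-1247-3p with 29 and 1 reads, and miR-124-5p with 4 and 22 reads. The arms of a hairpin come from 1 precursor, so these are not independent miRNAs, and the exceptions among the 17 were miR-106a-3p and miR-376b-5p. Entries below the minimum were named after their values were seen.

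Within hairpins, the ratio of the 5p to the 3p arm does not depend on the scaling between libraries. Of 50 hairpins with both arms measured, 7 shifted by at least 2-fold (14%), 4 toward the 5p arm and 3 toward the 3p arm in the KO. The 5p to 3p ratio of miR-290a was 3.04 in WT and 7.96 in Wt1 KO, and that of miR-21a was 4.31 and 9.90. The opposite shift was seen in miR-467d, from 9.02 to 3.54, and in miR-28a, from 0.947 to 0.438. miR-467d-3p is near-identical to other miR-467 entries and miR-28a-5p to miR-28c, so some of these reads may come from other hairpins. For miR-28a both arms were lower, miR-28a-3p less so (779 and 409 reads, -1.30). The more abundant arm switched in miR-379, where the 5p to 3p ratio was 0.700 in WT and 1.50 in Wt1 KO, and in miR-669f, which did not reach the size of a shift. The median size of the shift over all 50 hairpins was 0.30 on the log2 scale.

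**Figure D5:**
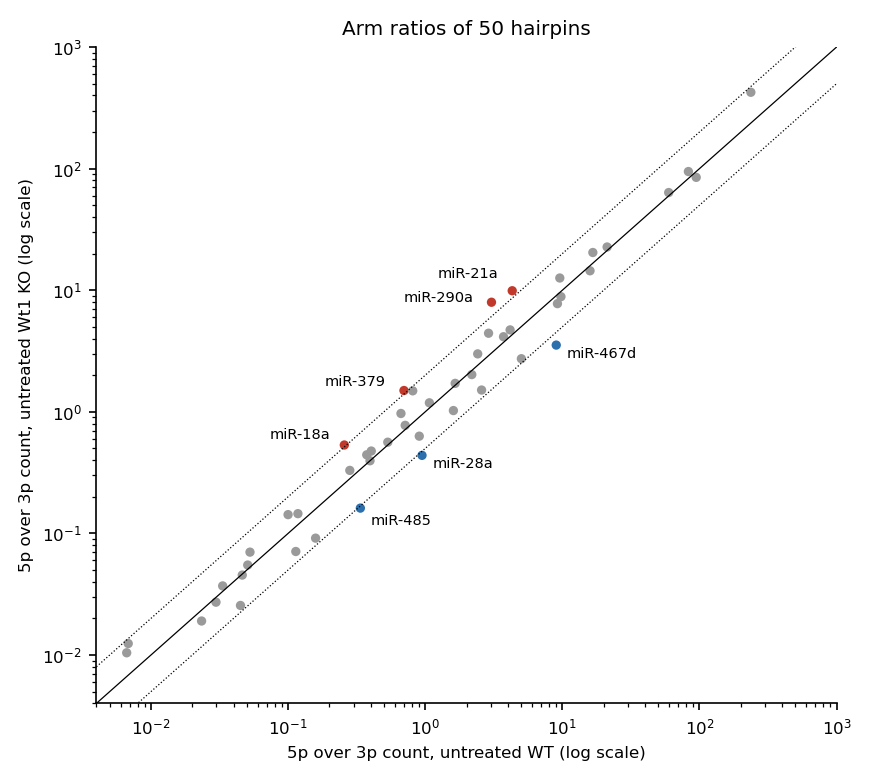
Each point is 1 of 50 hairpins, with the ratio of its 5p to its 3p count in WT (x axis) and in Wt1 KO (y axis), both on log axes. The solid line marks equal ratios and the dotted lines a 2-fold shift; 4 hairpins (red) lie above and 3 (blue) below the dotted lines.

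With TMM the imprinted clusters gave mostly small positive ratios, beside a median of 0.16 over all 282 miRNAs. In the Dlk1-Dio3 region of chromosome 12, which is expressed from the maternal chromosome, the miR-379 to miR-410 cluster had 38 measured miRNAs, of which 6 were higher and 0 lower, with a median of 0.41. That share of higher calls is close to the 12.4% over all miRNAs. With CPM of the total miR-376a-5p was called lower (-1.15). Some ratios above 0 turned negative there, such as that of miR-410-3p (-0.18), while the cluster's median kept its sign. Examples of the higher calls are miR-485-3p with 762 and 2109 reads (1.10) and miR-679-5p with 351 and 943 reads (1.05). In the neighbouring group that includes miR-127, 1 of 16 was higher, miR-665-3p with 93 and 276 reads (1.19), and the median was 0.52. miR-127-3p, the second most abundant miRNA, had 150812 and 295932 reads (0.60). None of the 7 higher calls in the region was made with CPM of the total. With the median of ratios miR-154-5p (0.96), miR-376b-3p (0.99) and miR-679-5p (0.99) were not called either.

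The large Sfmbt2 intron cluster on chromosome 2 had 25 measured miRNAs that are often near-identical in sequence, so their reads can be split in uncertain ways. miR-669e-5p (31 and 108 reads, 1.41) and miR-466f (59 and 161 reads, 1.07) were higher and miR-467d-5p (3288 and 1607 reads, -1.41) was lower. The cluster's median was 0.31, and -0.05 with CPM of the total. On the X chromosome, miR-470-5p (81 and 400 reads, 1.93) and miR-871-3p (150 and 491 reads, 1.34), which lie together at chrX:66810438-66814017, were both higher. miR-470-5p is reported to target pluripotency factors, and with RA it was at 11.2 CPM in WT and 889 CPM in Wt1 KO.

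Markers of other cell types were read for both libraries, beside 12.4% higher and 14.9% lower over all 282 miRNAs. Of 7 measured fibroblast and mesenchyme miRNAs, 5 were lower, and 2 of these 5 are the arms of the miR-21a hairpin. With CPM of the total 6 were lower, where 56 of all 282 were. The summed level of these markers was 62052 CPM in WT and 16078 CPM in Wt1 KO, of which miR-22-3p made up the greatest share. The defining mesenchyme miRNA miR-214-3p had 1 WT read and 0 KO reads, and the miR-199a-3p entry had 45 and 94 reads. Of 4 neural miRNAs, 2 were higher (miR-124-3p, and miR-9-5p with 187 and 511 reads), with sums of 506 and 826 CPM. With CPM of the total miR-9-5p was not called (0.72). Below the minimum, miR-218-5p had 14 and 8 reads, miR-132-3p had 14 and 12, and miR-124-5p had 4 and 22. The blood and endothelium miRNAs had 1 higher of 2, miR-150-5p, with sums of 929 and 3096 CPM. Below the minimum, miR-126a-3p had 24 and 52 reads and miR-142a-3p had 0 and 6. The blood markers miR-223-3p and miR-451a had 0 reads in both libraries. Muscle markers had 1 higher (miR-143-3p, 225 and 618 reads) and 1 lower (miR-133a-3p) of 2, with sums of 333 and 469 CPM and with miR-1a-3p and miR-206-3p at 0 reads. With CPM of the total miR-143-3p was not called (0.72). Below the minimum, miR-145a-5p had 15 and 30 reads. Of 2 endoderm markers neither was called, with sums of 183 and 178 CPM, and miR-122-5p had 0 reads. Of 3 kidney-enriched miRNAs none was called, with sums of 727 and 665 CPM. The part of other cell types in the lower and higher calls was not tested.

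Reads of miR-10a-5p give an upper bound on carry-over from the WT library with RA. This HOX cluster miRNA had 491094 reads in WT with RA, beside 66 in the WT library and 102 in the Wt1 KO library without treatment. If all of these had been carried over, 38.0 of the 6055 miR-181a-5p reads of WT and 1.25 of its 243 miR-335-3p reads would have the same source. In the KO the same bound is 58.7 of 514 reads for miR-181a-5p and 1.94 of 7 for miR-335-3p. Carry-over from Wt1 KO with RA is not covered by this bound. That library had 1443 reads of miR-10a-5p and 2048 of miR-181a-5p.

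Correlations of the ratio with properties of the miRNA were close to 0. Over the 282 miRNAs, which share both libraries, Spearman's rho of the ratio was -0.08 with GC content, 0.00 with length and -0.01 with the mean count. Beside 12.4% higher and 14.9% lower over all 282, 8 of 21 miRNAs with 1 locus on the X were higher and 2 lower. Of these 8, 5 come from the miR-106a to miR-363 cluster and 2 are miR-470-5p and miR-871-3p, which lie together. On chromosome 17, 5 of 8 were lower, and these are the miR-99b, let-7e and miR-125a cluster. On chromosome 12, 7 of 55 were higher, close to the share over all miRNAs, and 1 was lower. Of the 282, 231 matched the RefSeq table by name and sequence and 215 had 1 locus. Of the 72 miRNAs outside every list, 9 were higher and 13 lower.

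With RA, the Wt1 KO and WT libraries form a separate pair. Of the same 282 miRNAs, 57 were higher in Wt1 KO with RA (20.2%) and 58 lower (20.6%). Of the 35 higher without treatment, 15 were higher and 1 lower with RA. Of the 42 lower without treatment, 18 were lower and 1 higher. The Wt1 KO library with RA has only 83626 reads, so many of these ratios have wide intervals, and the difference between the pairs was not tested.

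At the count minimum itself, miR-1934-5p (46 and 54 reads), let-7f-5p (55 and 45) and miR-20b-3p (22 and 79) were just included. The entries just excluded were miR-200b-5p (71 and 27 reads), miR-378a-5p (19 and 77) and the joined miR-465 3p entry (39 and 59).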

How the data were processed

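Small RNA was sequenced in 6 libraries, 1 for each group. Adapters were joined to total RNA, per the labels' protocols, and gel bands of miRNA and of longer small RNA inserts were pooled. The deposited counts are, per the file headers, reads that match 1 entry (unique matches) or several (multi-matches). For the genome build, the miRBase release, the aligner and its mismatches, the status is: not given in the sources used here. Unique-match counts were used as deposited, and multi-match reads (3640 in WT, 4644 in Wt1 KO) only in an alternative. TMM factors over the 6 libraries (edgeR 4.0.16 in R 4.3.3, entries that averaged 50 counts or more over them) were 1.02 for WT and 0.798 for Wt1 KO. Ratios used a prior count of 0.5 and exact conditional binomial (Clopper-Pearson) intervals at 95%, or the exact conditional interval of the odds ratio for arms. With 1 library per side there is no test. A count of 0 allows up to 3 counts, which is 2.75 CPM in WT and 2.13 CPM in Wt1 KO. The median interval reached 0.26 to either side of a ratio. The code was tested on simulated data. Members, lists and rules were chosen with earlier results of these data known. Named miRNAs are the 12 higher and 12 lower with intervals farthest from 0, up to 4 most abundant members per list, the 10 most abundant of all, up to 8 shifted hairpins and up to 6 seeds in each direction. Other miRNAs were named after their values were seen. Sequences are as deposited. Positions and hosts come from RefSeq GRCm38.p6 and GENCODE, by name and sequence.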

Additional observations from a re-analysis of the deposited data

Results flagged for a closer look

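miR-302d-3p was lower in Wt1 KO without treatment (-2.15) and higher in Wt1 KO with RA (2.53, interval 1.23 to 3.71). The RA value rests on 7 reads in Wt1 KO and 72 in WT. miR-679-5p, of the Dlk1-Dio3 region, was higher without treatment (1.05, or 0.99 with the median of ratios) and lower with RA (-1.39, -2.01 to -0.84), from 26 and 4236 reads. These results stand out because the calls go opposite ways in the untreated and the RA-treated pair. The difference between the pairs was not tested, since each group is 1 library.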

How the results depend on the processing

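With CPM of the total, or CPM once reads of the clusters miR-290 and miR-302 were left out, 18 miRNAs were higher (35 with TMM) and 56 or 55 were lower (42 with TMM). The median shift of the ratios was -0.36 and -0.35. TMM over the untreated libraries, the median of ratios (DESeq2 1.42.0) and CPM without miR-92a-3p gave 32 higher and 42 lower, and lost the same number of higher calls, 3. Each of these scalings, and those by CPM above, moved the ratios down, so none could have removed a lower call. A minimum mean count of 10 gave 58 higher and 63 lower of 428, one of 200 gave 18 and 27 of 170, and none gave 66 and 81 of 913; here the number of entries measured changes. Calls that needed the whole interval past 1 numbered 18 and 35. A prior count of 2 gave 34 and 41, and adding multi-matches gave 39 and 41. Shifted hairpins numbered 14 with a minimum of 10, where they numbered 7. No called ratio of a named miRNA changed sign. The scalings moved ratios by less than the size of a call, so a sign change was not possible under them. Among 25 list medians 7 changed sign under some setting, all close to 0, as did 20 uncalled ratios of 120 named miRNAs. No paired analysis was possible because each group has 1 library, and for the same reason no library could be left out. Intervals cover counting error only.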
